A study of Mus musculus with 11 samples.

Results

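Cx3cr1, P2ry12, P2ry13, P2ry6, Gpr34, Tmem119, Selplg, Siglech, Entpd1 and Slc2a5 are surface receptors, transporters and markers of resting microglia, the immune cells that live in the brain. The set is defined by these gene symbols, and 9 of the 10 have a row among the 16934 genes of the count table. Siglech has none and is not analysed here. Of the 9 genes, 8 passed the low-count filter and were tested, and Slc2a5 did not. Microglia with fibril-loaded neurons gave 4 libraries: primary microglia from C57BL/6 mice kept for 6 h with primary cortical neurons, taken at day 14 in vitro, that had first held 0.1 µM Atto488-labelled α-synuclein fibrils for 16 h and then been washed. Microglia with untreated neurons gave 3 libraries, with the same co-culture and no fibrils. Microglia alone gave 4 libraries and met neither neurons nor fibrils. All microglia came from newborn pups of day 0 to 3 and had spent 7 to 10 days in medium with fetal calf serum. The labels do not say how microglia were parted from neurons before RNA extraction. RNA was read with a 3′ mRNA kit, which makes 1 tag per transcript end, so counts were not divided by transcript length and levels of different genes are compared per tag.

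In the living brain these genes are the usual signature of unstimulated microglia, and many of them fall when the cells are activated or moved into serum culture. CX3CR1 is the receptor for fractalkine, a chemokine that neurons display on their surface. P2RY12 and P2RY13 sense ADP, P2RY6 senses UDP, and ENTPD1 (CD39) is the surface enzyme that breaks extracellular ATP and ADP down, so these 4 genes read and shape the nucleotide signal given off by injured cells. GPR34 is a receptor for lysophosphatidylserine, SELPLG (PSGL-1) is a ligand of P-selectin, TMEM119 is a membrane protein used to tell microglia from blood-derived macrophages, and SLC2A5 is a fructose transporter.

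The genes lie on 7 chromosomes of GRCm38.p6 in RefSeq, whose coordinates are those of mm10, and 2 pairs of them are neighbours. P2ry13 (chromosome 3, 59207892 to 59210882) and P2ry12 (chromosome 3, 59216271 to 59262985) lie 5389 bases apart on the minus strand, both inside the span of Med12l on the plus strand. Tmem119 (chromosome 5, 113793729 to 113800396) and Selplg (chromosome 5, 113817798 to 113832528) lie 17402 bases apart on the minus strand. Cx3cr1 occupies chromosome 9 from 120048683 to 120068296 on the minus strand, and P2ry6 chromosome 7 from 100937630 to 100975498 on the minus strand. Gpr34 lies on chromosome X from 13622650 to 13640859, Entpd1 on chromosome 19 from 40612366 to 40741602 and Slc2a5 on chromosome 4 from 150119344 to 150144168, all on the plus strand. All 9 are protein-coding, and the spans given are whole genes with introns.

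The promoters of 3 members are shown because Cx3cr1 is the member that passed the test, while the neighbours P2ry13 and P2ry12 did not. Each runs 5′ to 3′ on the gene's own strand, from 250 bases before to 50 bases after the start site, and was taken from RefSeq, build GRCm38.p6. Capitals mark matches to 5 short motifs searched on both strands, given with the share of 32851 promoter windows of the same length that hold them. They include the PU.1 core GAGGAA (28.3%), the RUNX core TGTGGT (16.8%) and the AP-1 motif TGANTCA (7.81%). A loose MEF2-like pattern is CTA and TAG with any 4 bases between them, not only A or T (3.69%). The interferon regulatory factor repeat is GAAA and GAAA with 2 bases between them (3.44%). The windows are chr9:120068247-120068546 for Cx3cr1, chr3:59210833-59211132 for P2ry13 and chr3:59262936-59263235 for P2ry12, all on the minus strand.
Cx3cr1: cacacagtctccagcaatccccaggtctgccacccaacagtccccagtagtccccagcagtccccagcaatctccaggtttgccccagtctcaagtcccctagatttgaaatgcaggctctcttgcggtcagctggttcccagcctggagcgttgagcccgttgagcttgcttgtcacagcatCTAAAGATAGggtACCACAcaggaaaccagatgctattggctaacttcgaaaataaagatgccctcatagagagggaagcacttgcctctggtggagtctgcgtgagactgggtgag
P2ry13: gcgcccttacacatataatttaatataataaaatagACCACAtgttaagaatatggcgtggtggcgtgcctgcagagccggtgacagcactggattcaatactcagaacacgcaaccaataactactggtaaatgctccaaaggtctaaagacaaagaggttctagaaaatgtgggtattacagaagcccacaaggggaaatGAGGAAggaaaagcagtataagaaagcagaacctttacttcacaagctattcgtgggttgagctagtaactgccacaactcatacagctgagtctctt
P2ry12: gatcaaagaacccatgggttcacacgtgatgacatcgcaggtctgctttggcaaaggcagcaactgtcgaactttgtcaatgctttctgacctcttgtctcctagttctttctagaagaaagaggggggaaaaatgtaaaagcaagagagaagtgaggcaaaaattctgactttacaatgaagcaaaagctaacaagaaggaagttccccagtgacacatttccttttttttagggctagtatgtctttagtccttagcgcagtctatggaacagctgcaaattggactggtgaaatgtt
The Cx3cr1 window holds 1 match to the MEF2-like pattern, with a G among its 4 middle bases, and 1 RUNX match. The P2ry13 window holds 1 PU.1 match and 1 RUNX match, and the P2ry12 window no match to these letters. Windows of Siglech, Slc2a5 and Entpd1 are not shown. RUNX matches also lay in those of Siglech and Slc2a5 and in the downstream window of Entpd1. PU.1 matches lay in that of Siglech and in the downstream window of Entpd1. The matches are a description of sequence and not of binding.

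The libraries held 8253070 to 14844071 counts with fibril-loaded neurons, 10925771 to 16802451 with untreated neurons and 10700940 to 14541179 in microglia alone, and between 9157 and 11739 genes were detected in each. A pan-microglia and macrophage list of 20 genes, none of them a member, summed to 20013 to 25773 CPM (counts scaled to a common TMM-adjusted library size) with fibril-loaded neurons, 22354 to 25999 with untreated neurons and 19326 to 21121 in microglia alone. A neuron list of 25 genes summed to 838 to 1272, 672 to 943 and 1378 to 1614 CPM in the same order, most of it Basp1. These sums were highest in microglia alone, the group that met no neurons. Among the others, Dcx was at 2.59, 0.0402 and 48.5 CPM on average in that order, and Map2 at 5.57, 5.07 and 25 CPM. Nrgn went the other way at 15.1, 29.8 and 0 CPM, as did Camk2a at 8.26, 10.6 and 0.47 CPM. The synaptic gene Snap25 had no count in any library. Border-associated macrophage genes (10) summed to 871 to 1404, 1279.5 to 1578 and 872 to 1202 CPM, astrocyte genes (12) to 21.7 to 110, 30.4 to 131 and 26.0 to 67.4 CPM, and oligodendrocyte lineage genes (11) to 163 to 357, 284 to 328 and 185 to 305 CPM. For fibroblast, mural and endothelial genes (10 in the table) the ranges were 4.50 to 27.7, 1.01 to 52.0 and 4.16 to 34.4 CPM, and for neutrophil and monocyte genes (5) 0 to 8.81, 0 to 13.3 and 0 to 2.57 CPM. The part of these cell types in the results below was not tested. The ribosomal RNA precursor Rn45s took 10.97% to 17.0% of counts with fibril-loaded neurons, 10.7% to 15.7% with untreated neurons and 14.001% to 24.8% in microglia alone. With Rn45s left out, no call of a member changed. The labels do not say whether a group's libraries derive from different cultures or mice, and the p-values below therefore reflect the variation among these 11 libraries, part of which may be technical.

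Cx3cr1 carried most of the signal of the set. It was the most abundant member in every library, and made up 87.2% to 93.7% of the members' summed CPM with fibril-loaded neurons, 80.1% to 86.8% with untreated neurons and 68.0% to 83.7% in microglia alone. By mean level over the 11 libraries it stood above 99.6% of tested genes, while Selplg stood above 80.6%, P2ry6 above 77.4%, P2ry13 above 67.2%, Tmem119 above 52.7%, Entpd1 above 51.7% and Gpr34 above 41.5%. P2ry12, the receptor most often used to mark resting microglia, stood above 22.7% of tested genes.

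**Figure D1:**
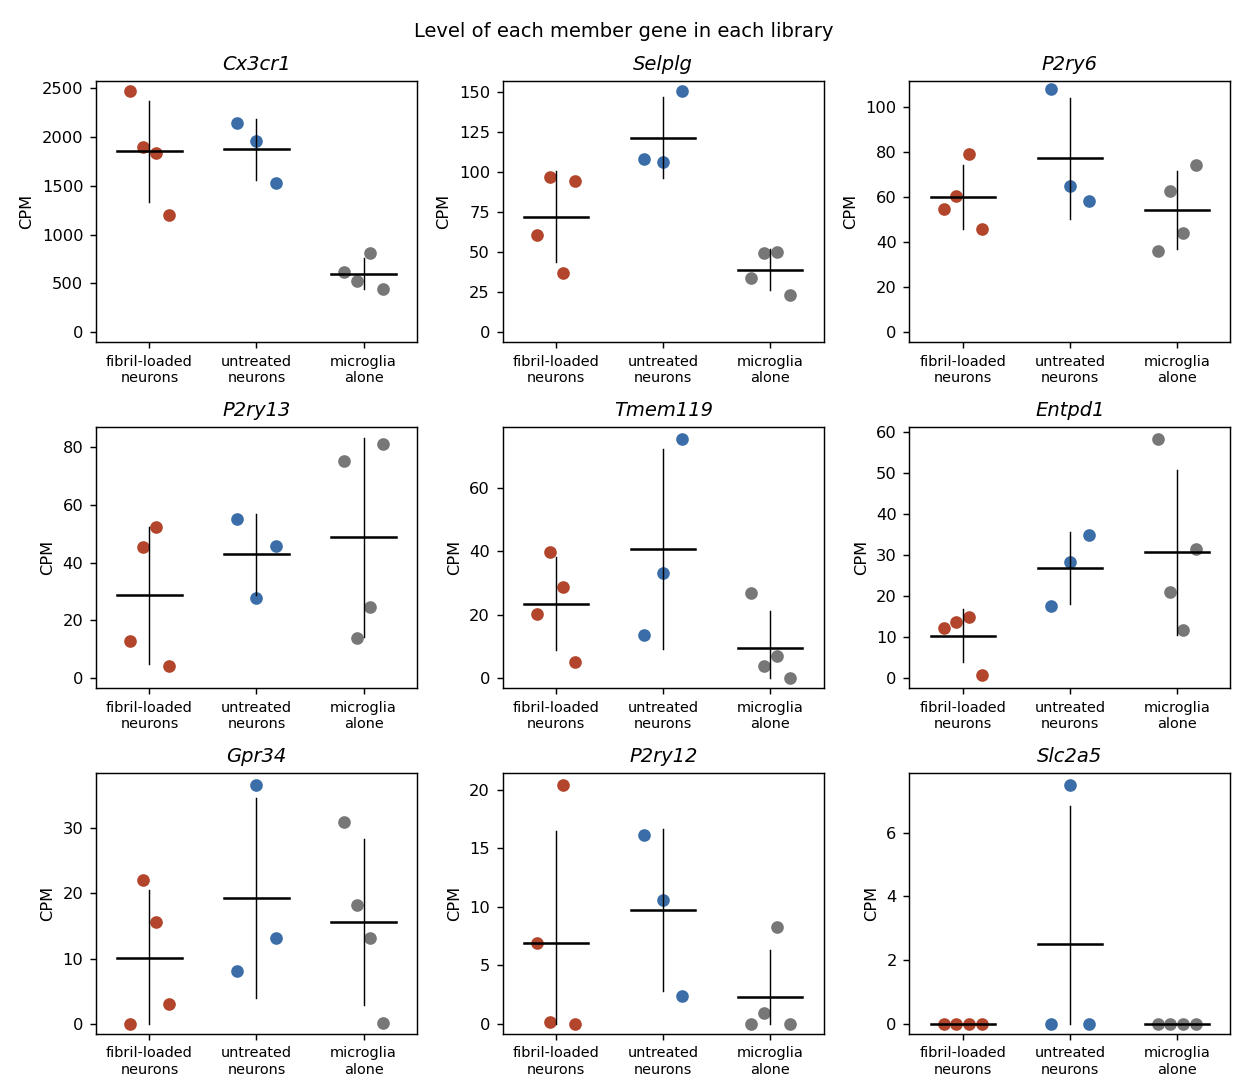
CPM of the 9 members with a row in the table (vertical axis, linear, its own scale in each panel) in each library of the 3 groups; points are libraries, bars are means and vertical lines 1 SD, stopped at 0. Cx3cr1 in both co-cultures lies above all 4 libraries of microglia alone, Selplg with untreated neurons lies above both other groups, and the remaining members overlap between microglia alone and each co-culture.

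Cx3cr1 was higher in both co-cultures than in microglia alone. It was at 2475, 1901, 1841 and 1202 CPM with fibril-loaded neurons, 2141, 1957 and 1533 CPM with untreated neurons, and 619.5, 524, 812 and 446 CPM in microglia alone. The lowest co-culture library stood above the highest library of microglia alone. The fold change over microglia alone was 3.09 with fibril-loaded neurons (95% interval 2.09 to 4.56, log2 1.63, SE 0.27, edgeR BH-adjusted p = 0.00527) and 3.13 with untreated neurons (2.07 to 4.71, log2 1.64, SE 0.28, edgeR BH-adjusted p = 0.00613). These comparisons share the 4 libraries of microglia alone. Between the co-cultures, fibril-loaded over untreated, the fold was 0.988 (95% interval 0.656 to 1.49, edgeR BH-adjusted p = 1.00), and the groups overlapped.

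Cx3cr1 was the single member called higher in each comparison with microglia alone, where edgeR called 0.266% of all tested genes higher with fibril-loaded and 0.461% with untreated neurons. No member was called lower in either, where 0.0532% and 0.177% of all tested genes were. The call with fibril-loaded neurons passed under all 17 alternatives, with adjusted p from 5.24e-09 (DESeq2) to 0.0485. The call with untreated neurons passed under 15 of 16 and was lost when replicate 1 of each group, its library with the fewest detected genes, was left out, at log2 1.57 and an edgeR BH-adjusted p of 0.0538. Scaled to the pan-microglia genes in place of all genes, which moved the median of all genes by a log2 of -0.13 with fibril-loaded and -0.22 with untreated neurons, the Cx3cr1 log2 fold change was 1.49 and 1.42, and both passed. These are bulk libraries, in which a change in the share of one cell type and a change of RNA per cell cannot be told apart.

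GENCODE draws a longer Cx3cr1 gene, from 119901616 to 120069879 on chromosome 9, which overlaps Csrnp1, Gorasp1 and Xirp1 on the same strand, and the labels do not say which gene models were counted. The level of Csrnp1 was 11.5 ± 12.6 CPM with fibril-loaded neurons (SD, n = 4), 10.96 ± 14.4 with untreated neurons (n = 3) and 1.59 ± 2.29 in microglia alone (n = 4). Gorasp1 was at 22.2 ± 16.0, 23.2 ± 22.2 and 30.5 ± 35.5 CPM, and Xirp1 at 3.16 ± 4.93, 0.237 ± 0.41 and 0 CPM. All 3 lay far below Cx3cr1 in each group, and neither Gorasp1 nor Csrnp1, which were tested, passed in any comparison.

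The genes whose profile over the 11 libraries lay nearest to that of Cx3cr1 were Fam214b, Cxcl16, a chemokine gene, and Slc43a2, an amino acid transporter gene, among 3108 genes of at least 50 CPM on average. The root mean square distance between centred log2(CPM + 1) profiles was 0.29 for Fam214b, 0.33 for Cxcl16 and 0.36 for Slc43a2, against a median of 0.98 for the 3108 genes. Fam214b was at 92.2 ± 18.3 CPM with fibril-loaded neurons, 89.7 ± 25.9 with untreated neurons and 34.0 ± 7.55 in microglia alone (SD, n = 4, 3 and 4). Cxcl16 was at 174 ± 32.4, 202 ± 44.6 and 88.1 ± 21.9 CPM, and Slc43a2 at 608 ± 215, 774 ± 382 and 181 ± 33.8 CPM, in the same order. Like Cx3cr1, each had its lowest mean in microglia alone, which follows from choosing them by their profile over these same libraries.

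Selplg was the next most abundant member in both co-cultures. It was at 60.7, 96.9, 37.2 and 94.3 CPM with fibril-loaded neurons, 108, 106 and 151 CPM with untreated neurons, and 33.5, 49.7, 50.05 and 23.2 CPM in microglia alone. Untreated co-cultures stood above every other library, while fibril-loaded co-cultures overlapped microglia alone in 1 library, replicate 3. The fold over microglia alone was 3.11 with untreated neurons (95% interval 1.72 to 5.64, SE of log2 0.41, edgeR BH-adjusted p = 0.0778), close to that of Cx3cr1, and it did not pass. It passed in DESeq2 (BH-adjusted p = 0.015), which called 1.47% of all genes higher, and in edgeR without the low-count filter (BH-adjusted p = 0.0196), which called 1.1% higher. Over its other 14 alternatives the adjusted p ran from 0.0681 to 0.311, and the log2 fold change over all 16 from 1.42 to 1.78.

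**Figure D2:**
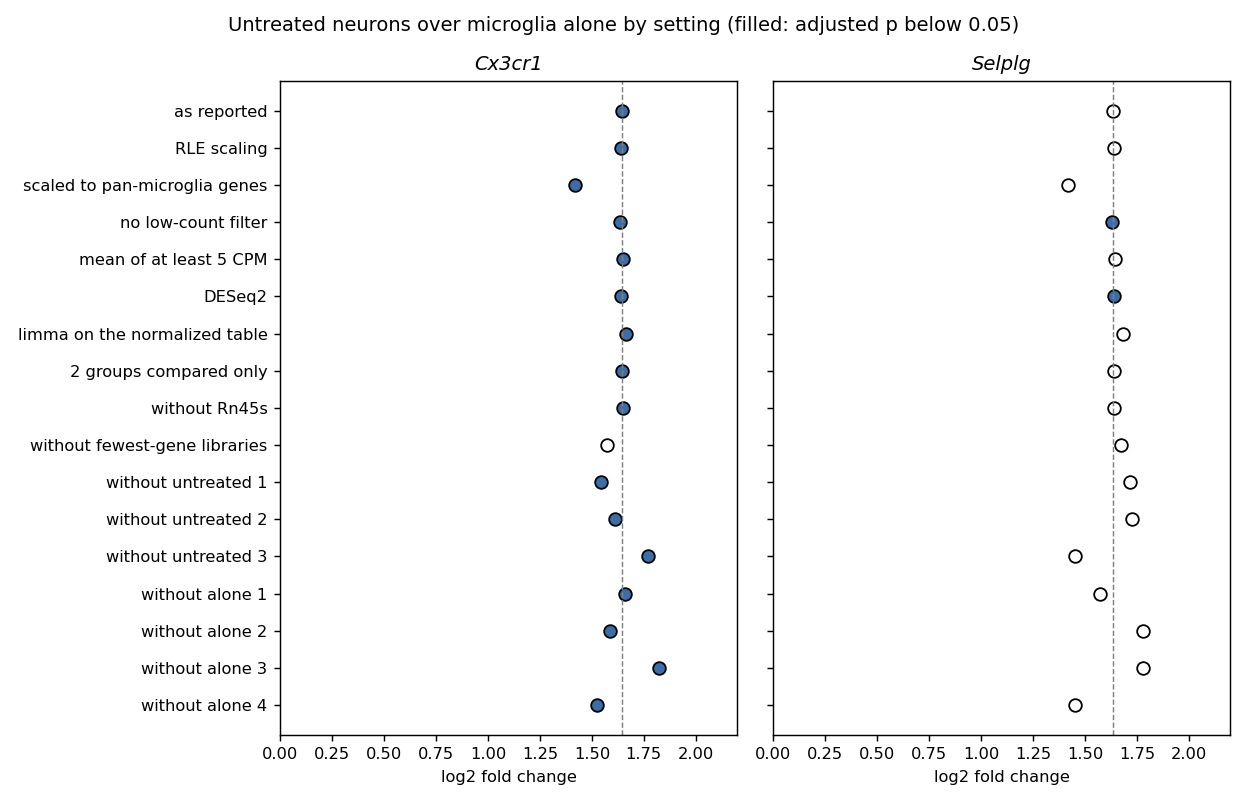
Log2 fold change of microglia with untreated neurons over microglia alone (horizontal axis) for Cx3cr1 and Selplg, as reported and under each of 16 alternatives (rows); filled points have a BH-adjusted p below 0.05 and the dashed line is the value as reported. Both genes keep a log2 fold change between 1.42 and 1.82 throughout, with Cx3cr1 losing its call in 1 row and Selplg gaining one in 2.

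With fibril-loaded neurons Selplg was 1.85-fold the level of microglia alone (95% interval 1.06 to 3.22, unadjusted p = 0.032, edgeR BH-adjusted p = 0.573) and 0.594-fold that with untreated neurons (0.329 to 1.07, edgeR BH-adjusted p = 1.00). All 4 fibril-loaded libraries were below the 3 untreated ones. CPM ranges lay apart in that direction for 2.3% of tested genes and in either direction for 4.68%, and neither Selplg comparison passed.

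Tmem119, the neighbour of Selplg, had high and low libraries in every group. It was at 20.3, 39.9, 28.8 and 5.03 CPM with fibril-loaded neurons, 13.6, 33.2 and 75.7 CPM with untreated neurons, and 26.7, 3.66, 6.81 and 0 CPM in microglia alone. All groups overlapped. The fold over microglia alone was 2.52 with fibril-loaded neurons (95% interval 0.545 to 11.7, edgeR BH-adjusted p = 1.00) and 4.38 with untreated neurons (0.85 to 22.6, edgeR BH-adjusted p = 0.536), and fibril-loaded over untreated it was 0.575 (0.115 to 2.88, edgeR BH-adjusted p = 1.00). Without replicate 1 of microglia alone, its highest library, the log2 fold change over microglia alone was 2.76 in place of 1.33 with fibril-loaded and 3.55 in place of 2.13 with untreated neurons, and without any 1 library it ran from 0.92 to 2.76 and from 1.33 to 3.55. Iscu, the gene on the other side of Tmem119, was at 24.5 ± 15.4 CPM with fibril-loaded neurons, 45.2 ± 22.1 with untreated neurons and 13.4 ± 14.2 in microglia alone (SD, n = 4, 3 and 4), and did not pass either. Coro1c, on the other side of Selplg, was at 429 ± 97.5, 414 ± 65.1 and 574 ± 94.3 CPM in the same order. Of the 4 genes in this stretch, Selplg, Tmem119 and Iscu had their highest mean with untreated neurons and Coro1c had its lowest there. None of the 4 passed in any comparison of the edgeR fit as reported, and the share of all genes with such an order was not counted.

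**Figure D3:**
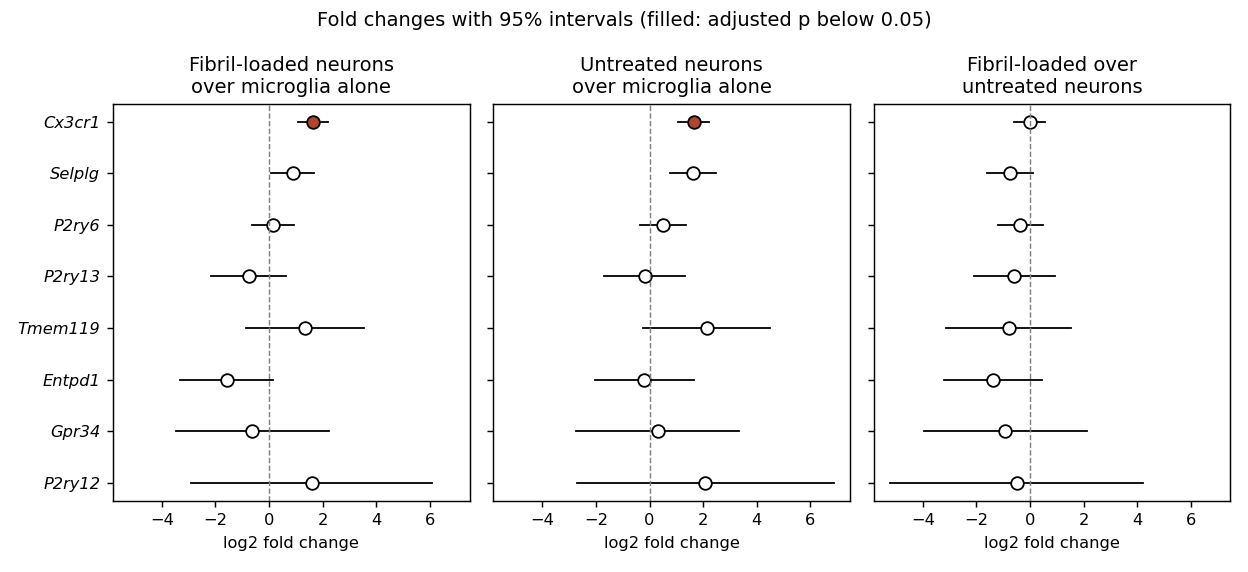
Log2 fold changes (horizontal axis) of the 8 tested members in the 3 comparisons, with edgeR's 95% interval as a line; filled points have a BH-adjusted p below 0.05. Cx3cr1 passes in both comparisons with microglia alone, all 8 points lie left of 0 between the co-cultures (Cx3cr1 at -0.02, but at 0.0767 when scaled to pan-microglia genes), and intervals are narrowest for Cx3cr1 and widest for P2ry12.

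Of the nucleotide receptors, P2ry6 was the steadiest. It was at 54.8, 60.3, 79.2 and 45.8 CPM with fibril-loaded neurons, 108, 65.0 and 58.5 CPM with untreated neurons, and 36.0, 62.6, 44.1 and 74.5 CPM in microglia alone. The groups overlapped, and the fold over microglia alone was 1.11 with fibril-loaded (95% interval 0.64 to 1.91) and 1.42 with untreated neurons (0.792 to 2.55), with edgeR BH-adjusted p of 1.00 and 0.815. The folds of 3.09 and 3.13 seen for Cx3cr1 lie outside both of these unadjusted intervals. With untreated neurons the Cx3cr1 interval (2.07 to 4.71) overlaps that of P2ry6, and with fibril-loaded neurons (2.09 to 4.56) it does not. A difference between the 2 genes was not tested. The within-group SD of log2(CPM + 1) of P2ry6 was 0.42, against a median of 0.60 for genes within 1.5-fold of its level.

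P2ry13 split into high and low libraries within groups. It was at 12.8, 45.5, 52.4 and 4.24 CPM with fibril-loaded neurons, 55.2, 27.6 and 45.9 CPM with untreated neurons, and 75.3, 13.96, 24.5 and 81.3 CPM in microglia alone. In microglia alone replicates 1 and 4 were high and replicates 2 and 3 low, and with fibril-loaded neurons replicates 2 and 3 were high and replicates 1 and 4 low. Its within-group SD of log2(CPM + 1) was 1.24, against a median of 0.73 for the 2254 genes within 1.5-fold of its level. Folds over microglia alone were 0.588 with fibril-loaded (95% interval 0.222 to 1.56) and 0.88 with untreated neurons (0.308 to 2.51), and neither passed (edgeR BH-adjusted p = 1.00 and 0.997).

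P2ry12 was the lowest of the tested members and uneven within groups. Its counts were 100, 1, 218 and 0 with fibril-loaded neurons, 267, 118 and 40 with untreated neurons, and 0, 9, 93 and 0 in microglia alone, which is at most 20.4 CPM in any library. It had a count in 3 of 4, 3 of 3 and 2 of 4 libraries. A library with 0 counts allows a level of up to 3 counts, which is 0.178 to 0.35 CPM at these depths and covers counting error only. The fold with untreated neurons over microglia alone had a 95% interval from 0.153 to 117 (edgeR BH-adjusted p = 0.936). Neither the size nor the direction of a change can be read from so wide an interval. Med12l, which spans P2ry12 and P2ry13 on the opposite strand, had 114 counts in all, in 3 libraries, and whether the counting used strand is not given in the sources used here.

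Entpd1 had its lowest mean with fibril-loaded neurons. It was at 12.1, 13.5, 14.8 and 0.662 CPM with fibril-loaded neurons, 17.5, 28.2 and 35.0 CPM with untreated neurons, and 58.4, 21.1, 11.8 and 31.5 CPM in microglia alone. The fibril-loaded libraries were all below the untreated ones, while microglia alone overlapped both. The fold of fibril-loaded over untreated co-cultures was 0.382 (95% interval 0.107 to 1.36, edgeR BH-adjusted p = 1.00), and over microglia alone it was 0.335 with fibril-loaded neurons (0.1 to 1.12, adjusted p = 0.703) and 0.876 with untreated neurons (0.244 to 3.14, adjusted p = 0.997). None passed.

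Gpr34 was at 0, 22.0, 15.6 and 2.98 CPM with fibril-loaded neurons, 8.03, 36.7 and 13.1 CPM with untreated neurons, and 30.9, 18.2, 13.1 and 0.0835 CPM in microglia alone. All groups overlapped. The fold over microglia alone was 0.651 with fibril-loaded (95% interval 0.0906 to 4.68) and 1.24 with untreated neurons (0.15 to 10.2), and fibril-loaded over untreated it was 0.526 (0.0639 to 4.32), with edgeR BH-adjusted p from 0.997 to 1.00. Its within-group SD of log2(CPM + 1) was 1.92, against a median of 1.32 for genes within 1.5-fold of its level, of which 6.57% varied more. Cask on the opposite strand, which overlaps the gene, was at 22.7 ± 16.4, 16.2 ± 12.6 and 21.5 ± 9.29 CPM (SD, n = 4, 3 and 4). Slc2a5 had 84 counts (7.52 CPM) in replicate 2 with untreated neurons and 0 in the other 10 libraries. Over all genes 1434 had counts in 1 library only, and 287 of these had at least 84, so this count is not read as a difference between groups. Zeros were common among low genes: 64.7% of tested genes with a mean of 5 to 20 CPM had no count in at least 1 library, against 7.48% at 20 to 50 CPM and 0.328% at 50 to 100 CPM.

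Set side by side without Cx3cr1, the members summed to 168, 278, 248 and 153 CPM with fibril-loaded neurons, 327, 315 and 381 CPM with untreated neurons, and 261, 170.1, 159 and 210.5 CPM in microglia alone. The untreated co-cultures were the highest 3 libraries, and the fibril-loaded ones overlapped microglia alone. Selplg made up 15.0% to 61.6% of this sum with fibril-loaded neurons, 33.1% to 39.5% with untreated neurons and 11.02% to 31.6% in microglia alone. The pan-microglia sum was also higher with untreated neurons than in microglia alone in every library, and its part in this order was not tested. Genes of that list went both ways. C1qa was at 3239 CPM on average with untreated neurons against 2329 in microglia alone, and C1qc at 4160 against 2625. Laptm5 was at 1617 against 1896 CPM, and Cd68 at 811 against 930 CPM.

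**Figure D4:**
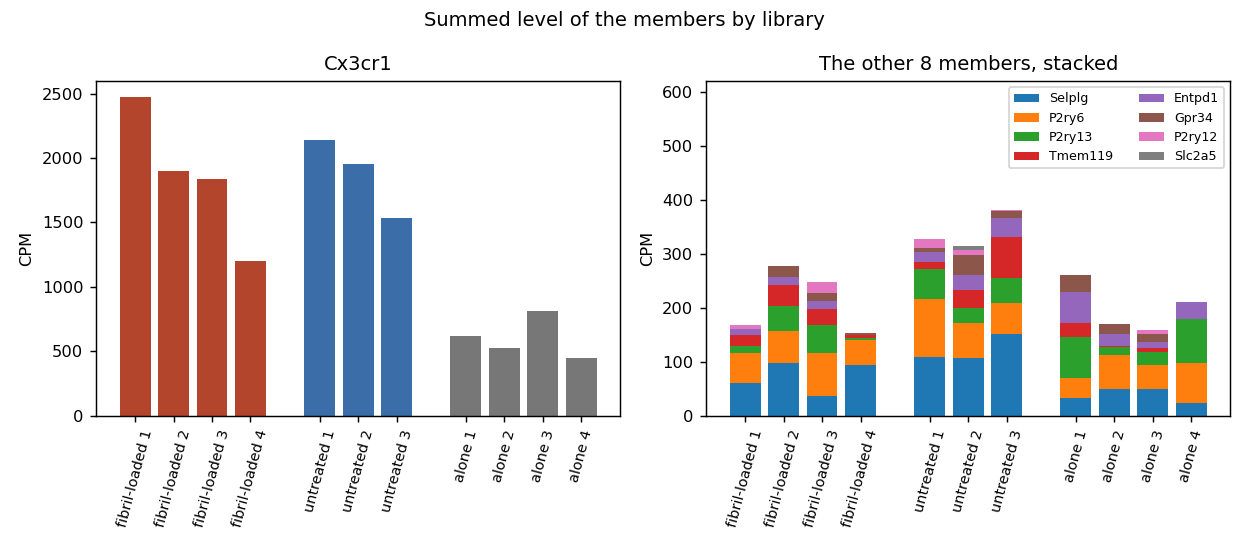
CPM (vertical axis, from 0) of Cx3cr1 (left) and of the other 8 members, stacked (right), in each library, numbered by replicate within fibril-loaded, untreated and alone groups. Cx3cr1 is high in all 7 co-cultures, and the stack is highest in the 3 untreated co-cultures, with Selplg and P2ry6 at its base.

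Between the co-cultures edgeR called none of the 8 tested members and 0% of all tested genes, with 3.95% of genes and 0 members at an unadjusted p below 0.05. DESeq2 called 143 genes (1.3%) higher and 40 lower, limma called none, and neither called a member. The 8 log2 fold changes, fibril-loaded over untreated, were all negative, from -0.02 for Cx3cr1 (0.0767 when scaled to pan-microglia genes) to -1.39 for Entpd1, with a median of -0.67 against 0 for all genes tested. Ranges lay apart for 2 members, Selplg and Entpd1, both lower, where 2.3% of tested genes were lower in this way. Replicate 4 with fibril-loaded neurons was the lowest of its group for 6 of the 8 tested members. Without it the median was -0.36 with 7 of 8 negative, and over the other 15 alternatives it ran from -0.98 to -0.44 with 6 to 8 negative. The members share these libraries, so their signs are not independent.

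In the comparisons with microglia alone the median log2 fold change of the 8 tested members was 0.51 with fibril-loaded neurons (5 of 8 positive, against -0.04 for all genes) and 1.07 with untreated neurons (6 of 8 positive, against -0.05 for all genes). CPM ranges lay apart upward for 1 member with fibril-loaded neurons, Cx3cr1, and for 2 with untreated neurons, Cx3cr1 and Selplg, where 2.7% and 4.9% of tested genes did. Without fibril-loaded replicate 3 the median with fibril-loaded neurons was 0.01, with 4 of 8 positive.

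Of 40 other genes of resting microglia, 37 were tested. With fibril-loaded neurons 1 was called higher and 1 lower than in microglia alone, where 0.266% and 0.0532% of all tested genes were. With untreated neurons also 1 was called higher and 1 lower, where 0.461% and 0.177% of all tested genes were. Olfml3, a secreted olfactomedin-family protein gene of microglia, rose to 55.4 ± 23.4 CPM with fibril-loaded neurons (SD, n = 4) and 42.8 ± 26.4 CPM with untreated neurons (n = 3), against 1.21 ± 1.56 CPM in microglia alone (n = 4; edgeR BH-adjusted p = 0.0193 and 0.0268). Hpgd, the enzyme that inactivates prostaglandins, fell to 30.4 ± 22.4 CPM with fibril-loaded neurons and 30.9 ± 2.77 CPM with untreated neurons, against 221 ± 118 CPM in microglia alone (edgeR BH-adjusted p = 0.00563 and 0.0135). The list's median log2 fold change over microglia alone was -0.04 with fibril-loaded and 0.17 with untreated neurons. Between the co-cultures none was called and the median was -0.22. The gene with the smallest p there, the integrin gene Itgam, was at 327 ± 116 CPM with fibril-loaded and 553 ± 179 CPM with untreated neurons (edgeR BH-adjusted p = 1.00).

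Among 24 other genes for purine receptors, nucleotide-handling enzymes, nucleoside transporters and a channel, 14 were tested and edgeR called none in any comparison. An unadjusted p below 0.05 was reached by 1 of the 14, Adora2a with untreated neurons against microglia alone, where 10.3% of all tested genes reached it. Their median log2 fold change was 0.22 with fibril-loaded and 0.49 with untreated neurons over microglia alone, and -0.36 between the co-cultures. Adora2a, an adenosine receptor gene, had the smallest p in all 3 and was at 0.662 ± 1.32 CPM with fibril-loaded neurons, 4.45 ± 3.92 with untreated neurons and 0 in microglia alone. Of 18 ligands, adaptors and signalling partners, 14 were tested and edgeR called none, with 5 at an unadjusted p below 0.05 with fibril-loaded and 6 with untreated neurons against microglia alone, where 8.14% and 10.3% of all tested genes were, and 1 between the co-cultures, where 3.95% were. Their median log2 fold change over microglia alone was 0.31 with fibril-loaded and 0.50 with untreated neurons, and -0.19 between the co-cultures. Cx3cl1, the fractalkine gene, is named here after its values were seen: it was at 2.06 CPM with fibril-loaded neurons, 4.41 with untreated neurons and 0 in microglia alone on average. It was among the tested genes that were not called, and a link to Cx3cr1 was not tested. Gna13, a G protein alpha subunit gene, was at 293 ± 40.8 CPM with untreated neurons against 159 ± 26.7 CPM in microglia alone (edgeR BH-adjusted p = 0.221). The arrestin gene Arrb1 was at 32.8 ± 10.96 CPM with fibril-loaded neurons, 72.1 ± 28.6 with untreated neurons and 99.4 ± 61.9 in microglia alone (edgeR BH-adjusted p = 0.177 for fibril-loaded neurons against microglia alone). Of 12 hexose transporter and sugar kinase or aldolase genes, 10 were tested and edgeR called none, with 3 at an unadjusted p below 0.05 with fibril-loaded and 2 with untreated neurons against microglia alone, and 1 between the co-cultures, beside the same 8.14%, 10.3% and 3.95% of all tested genes. Their median log2 fold change over microglia alone was 0.23 with fibril-loaded and -0.39 with untreated neurons, and 0.05 between the co-cultures. The hexokinase gene Hk2 was at 287 ± 81.7 CPM with fibril-loaded neurons, 333 ± 48.2 with untreated neurons and 143 ± 31.8 in microglia alone (edgeR BH-adjusted p = 0.179 and 0.0704). The ketohexokinase gene Khk had the smallest p of this list between the co-cultures, at 15.2 ± 13.95 CPM with fibril-loaded and 0.258 ± 0.397 CPM with untreated neurons (edgeR BH-adjusted p = 1.00).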

How the data were processed

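Microglia mRNA was sequenced in 11 libraries. The authors deposited raw counts per gene symbol and a normalized table, treated as a score: by its values, 99.75% to 99.99% of entries in a library lay within 0.51 of the count divided by 1 factor per library. Per the submitters' processing notes STAR, Partek, DESeq2 and the mm10 build were used, without versions or roles. Groups came from the treatment group label, and libraries were numbered within groups in accession order.

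Of 16934 genes, 2828 had no count and 11276 passed edgeR's filterByExpr. Counts were fitted in R 4.3.3 with edgeR 4.0.16 (TMM, quasi-likelihood test, group as the only term, all 11 libraries, two-sided). P-values were adjusted by Benjamini-Hochberg (BH) over all tested genes, with a threshold of 0.05. The code was tested on simulated counts. CPM use TMM-adjusted library sizes, and the common biological coefficient of variation was 1.15. No 2 libraries shared more than 0.289% of their counts above 50. Fold intervals come from edgeR's standard error and are not adjusted over genes.

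Alternatives were RLE scaling, scaling to pan-microglia genes, no low-count filter, a mean of at least 5 CPM, DESeq2 1.42.0, limma 3.58.1 on log2(score + 1), the 2 groups only, no Rn45s, and leaving out libraries. Named beyond the members were the genes of smallest p per list (up to 3 that passed, else 1), the 3 of nearest profile to Cx3cr1, and overlapping or adjoining genes. Cx3cl1, Basp1, Snap25, Dcx, Map2, Nrgn, Camk2a, C1qa, C1qc, Laptm5 and Cd68 were named outside this rule, after their values were seen. Members, lists and tests were chosen with earlier results of these data known. RefSeq symbols matched 16916 of 16934 genes, and promoters 6 of 10 members.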

Additional observations from a re-analysis of the deposited data

Results flagged for a closer look

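P2ry12 in replicate 3 of microglia alone, at 8.22 CPM, stood apart from the other 3 libraries of that group, which had 0, 0.891 and 0 CPM. The gap to the nearest library was 0.892 of the group's range, above Dixon's 95% critical value for 4 samples. This was 1 of 16 groups examined, and chance flags about 1 in 20 where values follow a normal distribution. Low counts with zeros need not follow it, and the rate for them was not estimated. The flag rests on 93 counts.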

How the results depend on the processing

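The Cx3cr1 log2 fold change against microglia alone stayed between 1.46 and 1.82 with fibril-loaded neurons and between 1.53 and 1.82 with untreated neurons when each library was left out, always past the threshold. Members called higher with untreated neurons numbered 1 as reported and with each library left out, 2 without a low-count filter and in DESeq2 (Selplg added), and 0 (Cx3cr1 lost) when replicate 1 of each group, the one with the fewest detected genes, was left out, a fit with fewer samples. Signs turned only for comparisons of a member that no fit called. Fibril-loaded against untreated, Cx3cr1 was -0.02, but 0.0767 scaled to pan-microglia genes and -0.19 to 0.14 with libraries left out; P2ry12 was 0.0792 without the fewest-gene libraries and -2.04 to 0.12; and Tmem119 ran from -1.20 to 0.0061. Untreated against alone, P2ry13 was 0.11 in limma and -0.49 to 0.18, Gpr34 -0.56 to 0.88, and Entpd1 0.57 without the fewest-gene libraries and -0.46 to 0.32. Fibril-loaded against alone, P2ry6 ran from -0.0175 to 0.34, and Gpr34 was 0.38 without the fewest-gene libraries. P2ry12 failed the filter with these 2 groups alone.

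Counts over all genes moved more. Between the co-cultures edgeR called 0 genes (445 at an unadjusted p below 0.05), but 5 higher without a filter, 1 higher without the fewest-gene libraries, 0 to 1 in each direction with libraries left out, and DESeq2 143 higher and 40 lower. Untreated against alone, 52 genes were higher, but 34 scaled to pan-microglia genes, 155 without a filter, 162 in DESeq2, 28 with 2 groups, 21 without the fewest-gene libraries and 25 to 62 with libraries left out. For the 20 lower genes these counts were 39, 79, 292, 13, 8 and 4 to 21, and 12 at a mean of at least 5 CPM. Fibril-loaded against alone, 30 genes were higher, but 114 without a filter, 123 in DESeq2 and 21 to 39 with libraries left out. The 6 lower genes became 50, 106 and 2 to 5, and 3 at a mean of at least 5 CPM. The cause of these moves was not tested. No paired analysis was run, because the labels give no replicate numbers shared between groups. The titles carry serial numbers that may mark shared preparations, the labels do not say so, and no block was fitted on them. Uneven detection below 20 CPM limits what can be said of P2ry12 and Gpr34. Tmem119 and P2ry13 also varied widely within groups. Tmem119 had no count in replicate 4 of microglia alone, and Entpd1 was at 0.662 CPM in replicate 4 with fibril-loaded neurons.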
